A study of Mus musculus with 2 samples.

Results

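The autophagy and mitophagy genes described here are 40 mouse genes, chosen by symbol from a list that covers the steps of autophagy, and all 40 were found among the 55536 gene entries of the tables. They were measured by total RNA sequencing of heart tissue from animal 2 and animal 1, female mice of strain B6CASTF1/J, a hybrid of C57BL/6 and CAST parents, both aged 2 months; the labels name no treatment. Both animals form 1 group (n = 2), with 1 library each from 300 ng of RNA after ribosomal RNA reduction. The labels number them as separate biological replicates and separate tissue samples, but give both the same donor entry, so the spread between them may not cover that between unrelated animals. There were 41790009 reads on genes for animal 2 and 41862417 for animal 1. Levels are TPM, a relative abundance corrected for transcript length, so that genes can be set side by side.

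Macroautophagy encloses cytoplasm in a double membrane and delivers it to lysosomes for breakdown. A kinase complex around ULK1 starts the process, and a class III phosphatidylinositol 3-kinase complex marks the membrane with PI3P. ATG9A vesicles and ATG2 lipid transfer supply membrane, and a pair of ubiquitin-like conjugation systems couples Atg8 family proteins (LC3 and GABARAP) to lipid. Cargo receptors bind both the cargo and the Atg8 proteins, and mitophagy, the removal of mitochondria, uses receptors in the outer mitochondrial membrane or the PINK1 kinase. Heart muscle depends on these steps to renew its dense mitochondria, and loss of LAMP2 in humans causes Danon disease, a cardiomyopathy. RNA levels say nothing of autophagic flux, which is set largely by protein modification and turnover.

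The transcription factor TFEB, 1 of the listed genes, binds E-boxes of the sequence CACGTG and drives many lysosomal and autophagy genes, so the promoters were searched for these letters, which read the same on both strands. RefSeq promoter windows of 300 bases, with 250 before and 50 after a start of transcription given for the gene in build GRCm38.p6, were found for 33 of the 40 genes. Of these 33 genes, 6 (18.2%) held CACGTG in a window, against 8.09% of the 27025 genes with a window. They were Lamp1, Atg3, Atg5, Atg7, Atg14 and Bnip3. The windows of Atg7 (chr6:114670846-114671145) and Atg14 (chr14:47568385-47568684, minus strand) lie inside the annotated genes. These genes begin at 114643097 for Atg7 and at 47570649 for Atg14 (mm10). Lamp1 held 4 copies, which begin 61, 45, 28 and 15 bases before the start, and 8 of all 32851 windows (0.0244%) held 4 or more. Atg3, which encodes the enzyme that passes Atg8 proteins on to lipid, held 2 copies, 94 and 71 bases before the start, and 0.594% of all windows held 2 or more. The longer form TCACGTGA, with T before and A after, was also searched for. It occurred in 1 of the 33 genes (Atg3), against 1.12% of all genes with a window, and in none of the Lamp1 copies. A match describes the letters in the window of the reference build and does not show binding. The alleles of these hybrid animals were not examined and may differ from it. The windows of Lamp1 and Atg3 are shown, each on the plus strand, because they hold the most copies; capitals mark each CACGTG. The first lies at chr8:13158911-13159210 and the second at chr16:45158579-45158878.
Lamp1: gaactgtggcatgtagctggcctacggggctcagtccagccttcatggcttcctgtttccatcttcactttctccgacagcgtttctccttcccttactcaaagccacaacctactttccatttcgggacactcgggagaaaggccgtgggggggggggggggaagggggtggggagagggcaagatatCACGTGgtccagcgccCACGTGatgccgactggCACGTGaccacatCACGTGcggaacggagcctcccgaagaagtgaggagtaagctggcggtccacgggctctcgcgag
Atg3: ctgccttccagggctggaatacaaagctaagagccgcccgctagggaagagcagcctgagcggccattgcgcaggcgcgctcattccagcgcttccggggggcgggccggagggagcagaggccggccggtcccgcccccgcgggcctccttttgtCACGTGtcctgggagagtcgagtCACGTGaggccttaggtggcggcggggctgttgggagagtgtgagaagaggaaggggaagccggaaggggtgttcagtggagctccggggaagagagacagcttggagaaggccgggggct

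Lamp2 encodes a lysosomal membrane protein made in 3 forms, A, B and C, which share most of the part inside the lysosome. Each uses its own last coding exon. They differ in the last 46 (A and B) or 47 (C) residues, which include the membrane span and the short cytosolic tail. LAMP2A serves chaperone-mediated autophagy and LAMP2B is known as the main form of heart and skeletal muscle. These last coding exons lie on the minus strand of chromosome X in GRCm38, at 38405435 to 38405571 for form A (transcript Lamp2-201), 38421715 to 38421851 for form B (Lamp2-202) and 38402142 to 38402281 for form C (Lamp2-203). The last 33 coding bases of each, stop codon included, are shown because they tell the forms apart; capitals mark the 20 positions that are not the same in all 3.
Lamp2-201: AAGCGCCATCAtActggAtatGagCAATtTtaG
Lamp2-202: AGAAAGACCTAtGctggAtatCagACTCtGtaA
Lamp2-203: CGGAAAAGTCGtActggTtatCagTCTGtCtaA

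In the first transcript table, form B had 33.8 TPM in animal 2 and 28.8 TPM in animal 1. Form A had 11.9 TPM in animal 2 and 8.78 TPM in animal 1. Form C had 4.59 TPM in animal 2 and 3.53 TPM in animal 1. Form B made up 66.4% of Lamp2 TPM in animal 2 and 68.5% in animal 1. Form A made up 23.4% in animal 2 and 20.9% in animal 1, and form C 9.02% in animal 2 and 8.40% in animal 1. The order B, A, C held in both animals. In the second quantification, a separate set of transcript levels deposited for the same libraries, form B made up 68.5% in animal 2 and 70.4% in animal 1.

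In both animals every one of the 40 genes had 1 TPM or more, which 12022 of all 55536 gene entries (21.6%) did. The 40 are all protein-coding, while the entries also include genes of other types. The 40 were chosen with earlier results of these data known. Their shares and ranks here therefore describe the list and do not test whether autophagy genes are highly expressed. Each of the 40 had between 262 and 21765 reads per library, so counting error was small against the levels. Their mean TPM ran between 3.40 (Atg14) and 297 (Pink1) with a median of 22.5, against a median of 8.61 over the 11238 nuclear protein-coding genes at 1 TPM or more, and 29 of the 40 lay above that median. A few genes held most of it: the 7 with over 100 TPM (Pink1, Map1lc3a, Lamp1, Sqstm1, Gabarap, Bnip3 and Bnip3l) made up 62.3% of the summed TPM of the 40, and 12 genes lay under 10 TPM. Genes over 100 TPM were 17.5% of the 40, against 4.93% of the nuclear protein-coding genes. Of all TPM, the 40 genes made up 0.209% in animal 2 and 0.184% in animal 1.

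**Figure D1:**
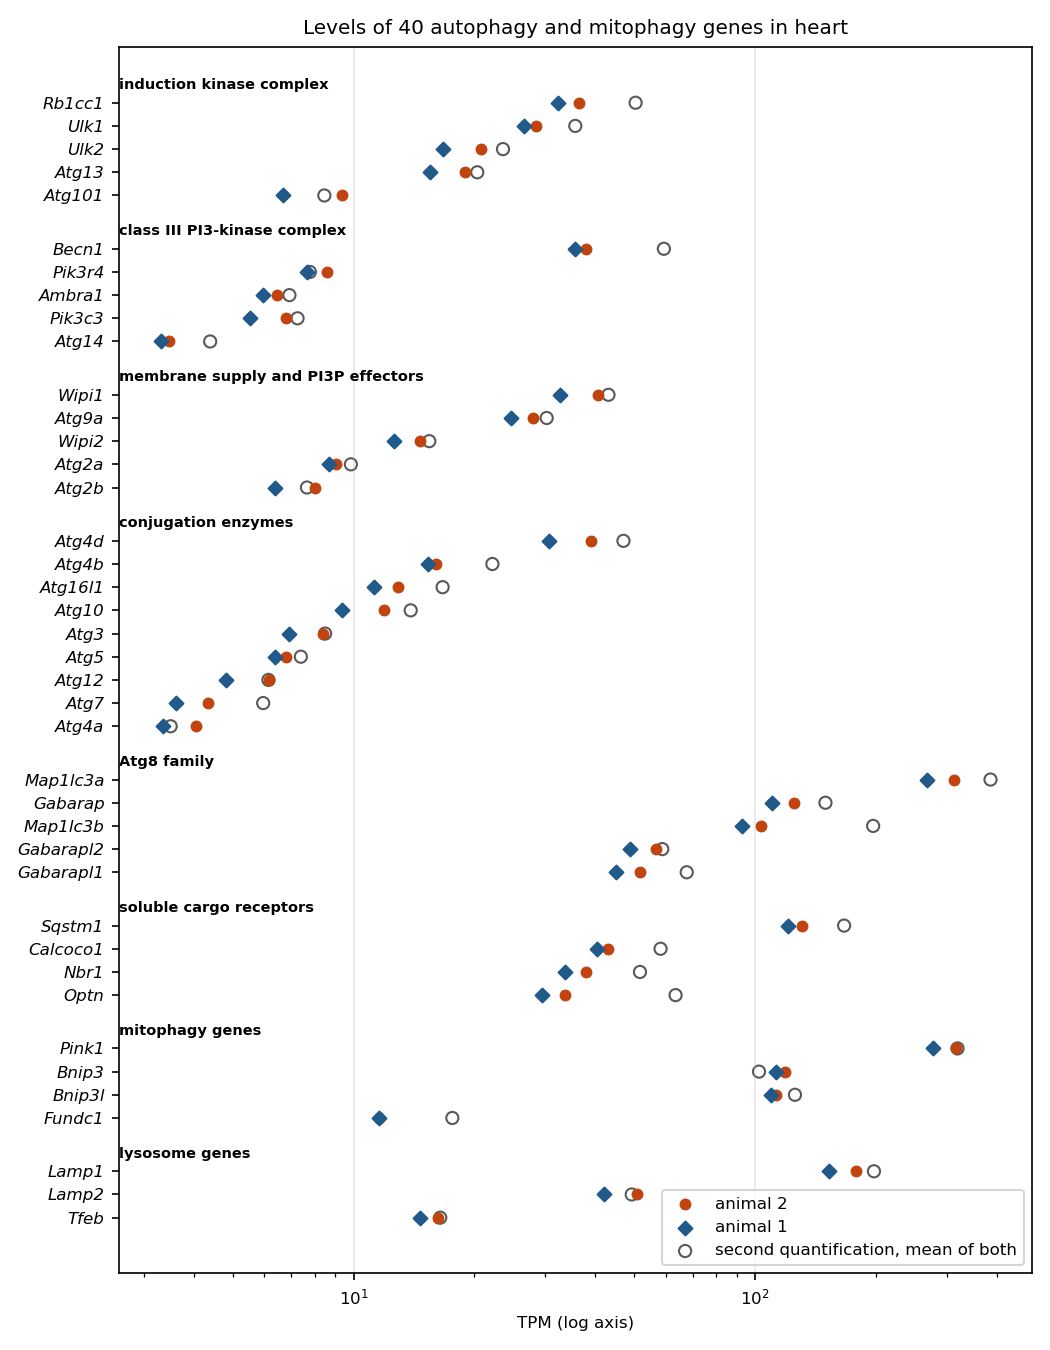
Level in TPM (log axis) of each of the 40 genes, grouped by role, in animal 2 (circles) and animal 1 (diamonds), with the mean of both animals in the second quantification (open circles). In the gene table Pink1 has the highest mean with 297 TPM, followed by Map1lc3a, Lamp1, Sqstm1, Gabarap, Bnip3 and Bnip3l. Fundc1, the lowest mitophagy gene, has a mean of 11.5 TPM, and Atg14 has the lowest mean of all with 3.40 TPM. The second quantification lies farthest above the gene table for Optn and Map1lc3b.

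Deposited TPM was higher in animal 2 for 39 of the 40 genes, with Fundc1 as the exception (11.54 TPM in animal 2, 11.55 TPM in animal 1). This is a shift of scale shared by other genes: on the log2 scale the TPM of animal 2 over animal 1 had a median ratio of 0.22 over the 16133 genes tested and 0.19 over the 40. Differences between animals were therefore tested on reads after TMM scaling, which sets library sizes by the bulk of the genes, and the paired TPM values that follow include the shift.

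The induction kinase complex summed to 114 TPM in animal 2 and 97.9 TPM in animal 1 (mean 106 ± 11.3, SD, n = 2). Rb1cc1, which encodes the scaffold FIP200, was its highest gene with 36.4 TPM in animal 2 against 32.3 TPM in animal 1. Ulk1, the initiating kinase, had 28.5 TPM in animal 2 and 26.7 TPM in animal 1. Ulk2, the related kinase, had 20.7 TPM in animal 2 and 16.7 TPM in animal 1, which put Ulk1 above Ulk2 by 1.38 times in animal 2 and 1.59 times in animal 1. Atg13, the adaptor of the complex, had 19.0 TPM in animal 2 and 15.5 TPM in animal 1, so its values overlap those of Ulk2 between animals. Atg101, the partner of ATG13, was the lowest with 9.34 TPM in animal 2 and 6.66 TPM in animal 1.

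The class III PI3-kinase complex was the lowest group, with 63.3 TPM in animal 2 and 58.0 TPM in animal 1 (mean 60.7 ± 3.72, SD, n = 2), and 1 gene held most of it. Becn1, which encodes the Beclin 1 scaffold, had 38.0 TPM in animal 2 and 35.6 TPM in animal 1. The other genes of the complex stayed under 10 TPM. Pik3r4, the regulatory kinase VPS15, had 8.60 TPM in animal 2 and 7.65 TPM in animal 1. Ambra1, a regulator of Beclin 1, had 6.45 TPM in animal 2 and 5.94 TPM in animal 1, close to Pik3c3, the catalytic subunit, with 6.80 TPM in animal 2 and 5.51 TPM in animal 1. Atg14, which directs the complex to autophagy, was the lowest of the 40 genes with 3.48 TPM in animal 2 and 3.31 TPM in animal 1, so that Becn1 exceeded it by 10.9 times in animal 2 and 10.8 times in animal 1. In the second quantification Atg4a was the lowest of the 40 and Atg14 averaged 4.40 TPM. The Becn1 level includes transcripts that are not annotated as coding, described further on. In coding transcripts alone of the first transcript table Becn1 had 5.82 TPM in animal 2 and 3.57 TPM in animal 1. There it exceeded Atg14 by 1.71 times in animal 2 and 1.10 times in animal 1. In coding transcripts of the second quantification Becn1 had 12.9 TPM in animal 2 and 11.0 TPM in animal 1. It then exceeded Atg14 by 3.25 times in animal 2 and 2.53 times in animal 1.

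Genes of membrane supply and PI3P binding summed to 100.3 TPM in animal 2 and 85.0 TPM in animal 1 (mean 92.7 ± 10.8, SD, n = 2). Wipi1, a PI3P-binding propeller protein, had 40.6 TPM in animal 2 and 32.8 TPM in animal 1, above its relative Wipi2, which recruits the ATG16L1 complex, by 2.78 times in animal 2 and 2.601 times in animal 1. Wipi2 had 14.6 TPM in animal 2 and 12.6 TPM in animal 1. Atg9a, the lipid scramblase of the seed vesicles, had 28.1 TPM in animal 2 and 24.6 TPM in animal 1. The lipid transfer genes Atg2a (9.02 TPM in animal 2, 8.67 TPM in animal 1) and Atg2b (8.03 TPM in animal 2, 6.36 TPM in animal 1) were the lowest.

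The 9 conjugation enzymes summed to 109.6 TPM in animal 2 and 91.7 TPM in animal 1 (mean 101 ± 12.7, SD, n = 2), less than the receptor gene Sqstm1 alone (values further on). Among the ATG4 proteases, which prime Atg8 proteins and later release them from lipid, Atg4d had 39.0 TPM in animal 2 and 30.7 TPM in animal 1. Atg4b had 16.0 TPM in animal 2 and 15.4 TPM in animal 1. Atg4a, the lowest of the enzymes, had 4.05 TPM in animal 2 and 3.35 TPM in animal 1. The order of Atg4d and Atg4b depends on which transcripts are counted: in protein-coding transcripts alone Atg4d had 0.59 TPM in animal 2 against 0.55 TPM in animal 1, and Atg4b 12.03 TPM in animal 2 and 11.5 TPM in animal 1. Atg16l1, which places the conjugation site on the membrane, had 12.9 TPM in animal 2 and 11.3 TPM in animal 1. Atg10, the E2-like enzyme for ATG12, had 11.9 TPM in animal 2 and 9.36 TPM in animal 1. The remaining enzymes were the E2-like Atg3, the ubiquitin-like Atg12 and its partner Atg5, and the E1-like Atg7, with means between 3.98 TPM (Atg7) and 7.65 TPM (Atg3).

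The Atg8 family, the ubiquitin-like proteins that are coupled to the membrane, was the highest group with 650.2 TPM in animal 2 and 565 TPM in animal 1 (mean 608 ± 60.3, SD, n = 2). Map1lc3a (LC3A) had 314 TPM in animal 2 and 268 TPM in animal 1, which was 48.2% of the family in animal 2 and 47.5% in animal 1. Gabarap followed with 125 TPM in animal 2 and 110.4 TPM in animal 1. Map1lc3b (LC3B), the usual marker of autophagosomes, had 103 TPM in animal 2 and 92.7 TPM in animal 1. Map1lc3a exceeded Map1lc3b by 3.04 times in animal 2 and 2.89 times in animal 1. In protein-coding transcripts alone of the first transcript table the lead was 1.16 times in animal 2 and 1.05 times in animal 1. There Map1lc3a (119 TPM in animal 2, 96.7 TPM in animal 1) overlapped Gabarap (113 TPM in animal 2, 98.5 TPM in animal 1). In coding transcripts of the second quantification the lead was 1.55 times in animal 2 and 1.52 times in animal 1. Map1lc3a (310 TPM in animal 2, 291 TPM in animal 1) then stood above Gabarap (149 TPM in animal 2, 148 TPM in animal 1). Gabarapl2 had 56.7 TPM in animal 2 and 48.7 TPM in animal 1. Gabarapl1 had 51.8 TPM in animal 2 and 44.9 TPM in animal 1. These gene-level ranges overlap, but in coding transcripts alone Gabarapl1 stood above Gabarapl2 in either quantification. In the first transcript table its coding level was 51.8 TPM against 21.5 for Gabarapl2 (animal 2). For animal 1 it was 44.9 against 19.1. The second quantification gave 72.0 against 24.1 (animal 2) and 63.1 against 23.7 (animal 1).

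The order below Map1lc3a depends on the quantification. In the second one Map1lc3a was still first with 388 TPM in animal 2 and 383 TPM in animal 1, but only 1.93 times Map1lc3b in animal 2 and 1.99 times in animal 1. Map1lc3b (201 TPM in animal 2, 193 TPM in animal 1) then stood above Gabarap (149.7 TPM in animal 2, 149.6 TPM in animal 1), and Gabarapl1 (72.0 TPM in animal 2, 63.1 TPM in animal 1) above Gabarapl2 (59.6 TPM in animal 2, 57.9 TPM in animal 1).

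**Figure D2:**
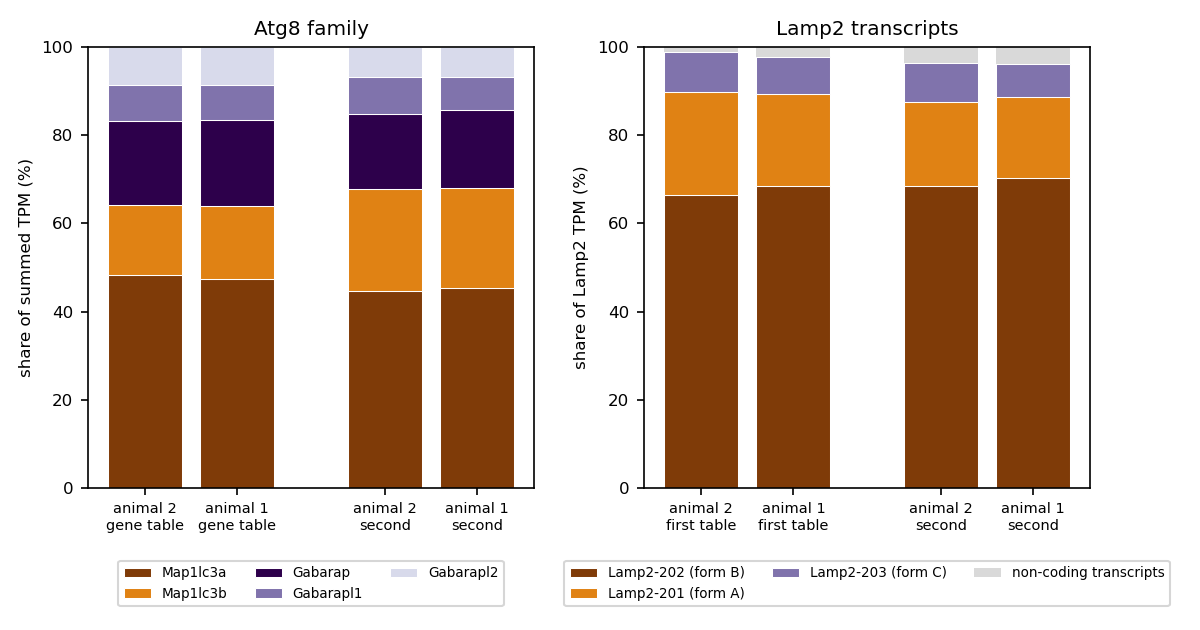
Left, share of the summed Atg8 family TPM (percent) held by each of its 5 genes, and right, share of Lamp2 TPM (percent) held by each transcript, in animal 2 and animal 1 for both quantifications. Map1lc3a makes up 48.2% in animal 2 and 47.5% in animal 1 of the gene table, the Map1lc3b share is 23.1% in animal 2 and 22.8% in animal 1 of the second quantification against 15.9% in animal 2 and 16.4% in animal 1 of the gene table, and form B leads Lamp2 in all 4 bars.

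Soluble cargo receptors summed to 246 TPM in animal 2 and 224 TPM in animal 1 (mean 235 ± 15.2, SD, n = 2). Sqstm1, which encodes p62, a receptor for ubiquitinated cargo that is itself broken down by autophagy, had 131 TPM in animal 2 and 121 TPM in animal 1. Calcoco1, an ER-phagy receptor, had 43.1 TPM in animal 2 and 40.5 TPM in animal 1. Nbr1, the p62-related receptor, had 37.9 TPM in animal 2 and 33.6 TPM in animal 1. Optn (optineurin), a receptor for ubiquitinated mitochondria, was the lowest with 33.6 TPM in animal 2 and 29.5 TPM in animal 1, so Sqstm1 exceeded Optn by 3.90 times in animal 2 and 4.09 times in animal 1. Optn was instead the next highest after Sqstm1 in the second quantification (66.0 TPM in animal 2, 60.8 TPM in animal 1), where Sqstm1 exceeded it by 2.45 times in animal 2 and 2.83 times in animal 1. In coding transcripts alone Optn stayed the lowest of these receptors in both animals of either quantification. Sqstm1 then exceeded Optn by 4.10 times in animal 2 and 4.25 times in animal 1 of the first transcript table. In coding transcripts of the second quantification the ratio was 5.04 in animal 2 and 5.19 in animal 1. There Optn had 27.0 TPM in animal 2 and 26.2 TPM in animal 1.

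Mitophagy genes summed to 560 TPM in animal 2 and 510.4 TPM in animal 1 (mean 535 ± 34.9, SD, n = 2). Pink1 (chromosome 4, 138313409 to 138326307, minus strand, mm10), the kinase that marks damaged mitochondria, was the highest of the 40 genes by mean with 316 TPM in animal 2 and 277 TPM in animal 1. Its values overlap those of Map1lc3a between animals, and in the second quantification Pink1 (323 TPM in animal 2, 315 TPM in animal 1) lay below Map1lc3a in both animals. In coding transcripts alone Pink1 lay above Map1lc3a in both. Map1lc3a then had 119 TPM in animal 2 and 96.7 TPM in animal 1 of the first transcript table, against 316 and 277 for Pink1. In the second quantification it had 310 coding TPM in animal 2 and 291 in animal 1, against 323 and 315 for Pink1. The hypoxia-inducible mitophagy receptors Bnip3 (119 TPM in animal 2, 112 TPM in animal 1) and Bnip3l, or NIX (113 TPM in animal 2, 109 TPM in animal 1), had overlapping values in the gene table. Their order turned in the second quantification, where Bnip3 had 101 TPM in animal 2 against 104 TPM in animal 1 and Bnip3l 125 TPM in animal 2 and 127 TPM in animal 1. In protein-coding transcripts alone Bnip3 exceeded Bnip3l by 5.35 times in animal 2 and 6.06 times in animal 1 of the first transcript table. In those of the second quantification it did so by 3.91 times in animal 2 and 3.99 times in animal 1. Fundc1, the third receptor, was the lowest with 11.54 TPM in animal 2 and 11.55 TPM in animal 1.

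Lysosome genes summed to 245 TPM in animal 2 and 209.7 TPM in animal 1 (mean 228 ± 25.3, SD, n = 2). Lamp1 (chromosome 8, 13159161 to 13175338, plus strand, mm10), a main glycoprotein of the lysosomal membrane and the gene with 4 copies of CACGTG above, had 178 TPM in animal 2 and 153 TPM in animal 1. Lamp2 had 50.9 TPM in animal 2 and 42.02 TPM in animal 1, so Lamp1 exceeded it by 3.51 times in animal 2 and 3.64 times in animal 1. Tfeb had 16.2 TPM in animal 2 and 14.7 TPM in animal 1, below its relative Mitf (22.3 TPM in animal 2, 21.2 TPM in animal 1) and above Tfe3 (5.72 TPM in animal 2, 5.76 TPM in animal 1), which bind the same motif.

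Between the animals the 40 genes differed little. In TMM-scaled reads the log2 ratio of animal 2 over animal 1 had a median of -0.02, against -0.0024 over all 16133 genes tested, and lay between -0.16 (Atg14) and 0.27 (Atg101). In 39 of the 40 genes (97.5%) the animals lay within 1.2-fold of each other, as did 75.5% of all genes tested and 93.8% of the 8858 protein-coding genes that had 500 reads or more, a depth closer to that of the 40. Reads were compared by an exact two-sided binomial test, adjusted over all genes by the Benjamini-Hochberg method. With a minimum of 2-fold, 0 of the 40 passed, against 222 of all 16133 genes (1.38%; 0.483% higher and 0.893% lower in animal 2). This test compares 2 libraries and sees counting error alone.

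With no fold minimum 4 of the 40 (10%) differed by that test, against 11.3% of all genes tested, and all 4 were lower in animal 2 with TMM scaling, as were 4.75% of all genes tested, but not with total gene reads as library sizes. Of the 40, 9 had an unadjusted p under 0.05 by this test, as did 21.9% of all genes tested. Bnip3 had 5878 reads in animal 2 and 6017 reads in animal 1, a scaled ratio of 0.926 (95% interval 0.893 to 0.960, adjusted exact p = 0.000575). Calcoco1 had 3813 reads in animal 2 and 3928 reads in animal 1, a ratio of 0.920 (adjusted exact p = 0.0039), and Ulk1 had 4261 reads in animal 2 and 4338 reads in animal 1, a ratio of 0.931 (adjusted exact p = 0.012). Sqstm1 had 8358 reads in animal 2 and 8304 reads in animal 1, a ratio of 0.954 (adjusted exact p = 0.027). With library sizes taken as total gene reads the ratios were 0.979 for Bnip3, 0.972 for Calcoco1, 0.984 for Ulk1 and 1.01 for Sqstm1, and none of these 4 passed. In that scaling, 12 other genes of the 40 passed as higher in animal 2, as did 18.6% of all genes tested. They were Atg101, Atg12, Atg4d, Wipi1, Gabarapl1, Lamp2, Ulk2, Rb1cc1, Map1lc3a, Nbr1, Lamp1 and Pink1, with ratios between 1.04 (Pink1) and 1.28 (Atg101). By edgeR's exact test with a dispersion common to all genes, 0 of the 40 passed, against 1.1% of all genes tested, and 0 had an unadjusted p under 0.05, against 5.06%. That dispersion was estimated from the same 2 libraries taken as 1 group. The difference between the animals is therefore part of it, and ratios as small as those of the 40 could hardly pass.

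Atg101 had the largest ratio, 1.21 (95% interval 1.03 to 1.42), with 357 reads in animal 2 and 280 in animal 1, and did not pass (adjusted exact p = 0.11), but passed with total gene reads (adjusted exact p = 0.0144). Becn1, with 1602 reads in animal 2 and 1672 in animal 1 (ratio 0.908), and Atg4d, with 1955 reads in animal 2 and 1691 in animal 1 (ratio 1.10), fell just short of passing, with an adjusted exact p of 0.052 for Becn1 and 0.051 for Atg4d. With total gene reads Atg4d passed (ratio 1.16, adjusted exact p = 0.000126) and Becn1 did not. By role, Atg8 genes lay closest together, with log2 ratios between -0.04 and 0.02 and none passing with TMM scaling, though Map1lc3a and Gabarapl1 passed as higher with total gene reads.

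**Figure D3:**
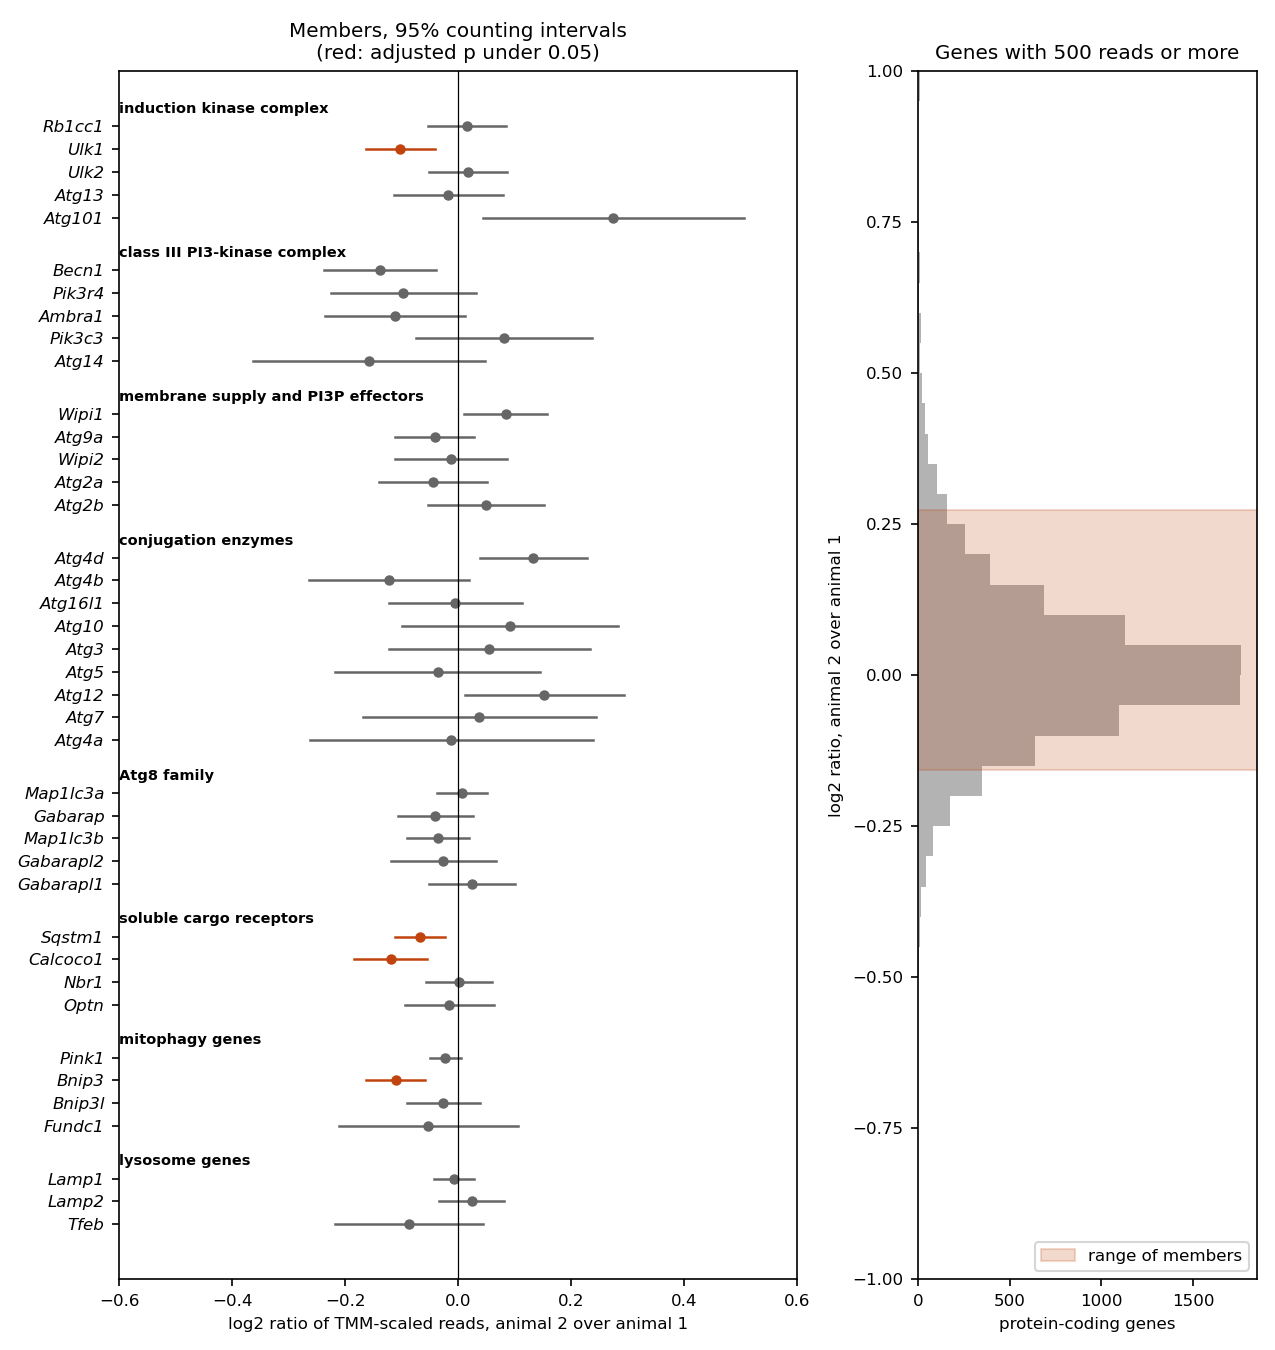
Left, log2 ratio of TMM-scaled reads of animal 2 over animal 1 for each of the 40 genes with its exact 95% counting interval (red, adjusted p under 0.05), and right, the number of protein-coding genes of 500 reads or more at each log2 ratio, with the range of the 40 genes shaded. The 40 ratios lie between -0.16 and 0.27, and the 4 red genes lie left of 0 with this scaling, but none of them passed when total gene reads were used.

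Cell type markers moved between the animals as well. Cardiomyocyte markers summed to 37600 TPM in animal 2 and 32637 TPM in animal 1, with 8 of 8 genes measured, all at 371 TPM or more on average, which matches the heart label. Of the 8, 5 were lower and 1 (Actc1, cardiac actin, ratio 1.07) higher in animal 2 by the test with no fold minimum and TMM scaling. Of all genes tested, 4.75% were lower and 6.6% higher in animal 2 by that test. Genes with very many reads pass at small ratios, such as Atp2a2 at 0.988 and the globin Hba-a1 at 1.02. Markers of other cells were higher in animal 2 by the same test in 5 of 6 fibroblast, 5 of 6 endothelial, 5 of 7 pericyte and smooth muscle, 3 of 7 macrophage and 4 of 6 adipocyte genes, with median log2 ratios of 0.28, 0.18, 0.25, 0.20 and 1.202. Summed levels were 364 TPM in animal 2 and 272 TPM in animal 1 for fibroblast, 224 TPM in animal 2 and 173 TPM in animal 1 for endothelial, 376 TPM in animal 2 and 281 TPM in animal 1 for pericyte and smooth muscle, and 96.8 TPM in animal 2 and 71.4 TPM in animal 1 for macrophage markers. Summed adipocyte markers had 59.8 TPM in animal 2 against 23.2 TPM in animal 1, and summed erythroid markers, mostly globins, 51837 TPM in animal 2 and 43218 TPM in animal 1. Of 7 erythroid genes 3 were higher and 1 (the globin Hbb-bs) lower in animal 2, and 5 higher and 0 lower with total gene reads. Of the skeletal muscle list, 4 of 7 genes averaged under 1 TPM, and 1 was higher and 1 lower in animal 2. With total gene reads as library sizes the cardiomyocyte result turned, with 5 of 8 genes higher and 0 lower in animal 2, while fibroblast, endothelial, pericyte and smooth muscle, macrophage and adipocyte genes stayed higher (6, 5, 7, 6 and 4 genes, 0 lower). With that scaling 18.6% of all genes tested were higher and 2.34% lower in animal 2. The part of cell makeup in the differences of Bnip3, Calcoco1, Ulk1 and Sqstm1 was not tested, and in bulk tissue fewer cells of a type and less RNA per cell cannot be told apart.

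The genes differed in which of their transcripts made up these levels. The median share of a gene's TPM in transcripts annotated as protein-coding was 93.8% over the 40 genes, against 93.1% over 11251 protein-coding genes. In 5 genes (Becn1, Atg4d, Map1lc3a, Gabarapl2 and Bnip3l) less than 50% of the TPM was in coding transcripts, and 7.56% of the 11251 genes had so little. In the second quantification 6 of the 40 genes did, against 9.98% of genes, and 4 genes did in both: Becn1, Atg4d, Gabarapl2 and Bnip3l.

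Becn1 (chromosome 11, 101285952 to 101302286, minus strand, mm10) had 15.3% of its TPM in coding transcripts in animal 2 and 10.02% in animal 1. Its highest transcript, Becn1-201, is annotated for nonsense-mediated decay and held 44.8% in animal 2 and 42.9% in animal 1. Atg4d (chromosome 9, 21265293 to 21277772, plus strand, mm10) had 1.51% in coding transcripts in animal 2 and 1.79% in animal 1, and retained-intron transcripts made up 97.1% in animal 2 and 97.8% in animal 1. Its coding transcript is 5951 bases long and its retained-intron transcripts Atg4d-203 and Atg4d-205 are 2123 and 697 bases. Gabarapl2 had 38.0% in coding transcripts in animal 2 and 39.2% in animal 1, with most of the rest in the retained-intron transcript Gabarapl2-203. Bnip3l had 19.2% in coding transcripts in animal 2 and 16.3% in animal 1, and its highest transcript, the non-coding Bnip3l-205 of 789 bases, held 43.2% in animal 2 and 39.3% in animal 1.

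For Map1lc3a the share depended on the quantification: 38.1% of its TPM was coding in animal 2 and 36.1% in animal 1 of the first table, and 79.9% in animal 2 and 75.9% in animal 1 of the second. Optn moved the other way, with 91.2% coding in animal 2 and 88.8% in animal 1 of the first table and 41.0% in animal 2 and 43.1% in animal 1 of the second. Atg10 had 59.6% in animal 2 and 62.8% in animal 1 of the first table, and 32.6% in animal 2 and 34.3% in animal 1 of the second. Summed over coding transcripts alone, Map1lc3a averaged 108 TPM in the first table and 300.3 TPM in the second. The gap between the tables is wider than that between the animals, 119 TPM in animal 2 and 96.7 TPM in animal 1 of the first table.

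**Figure D4:**
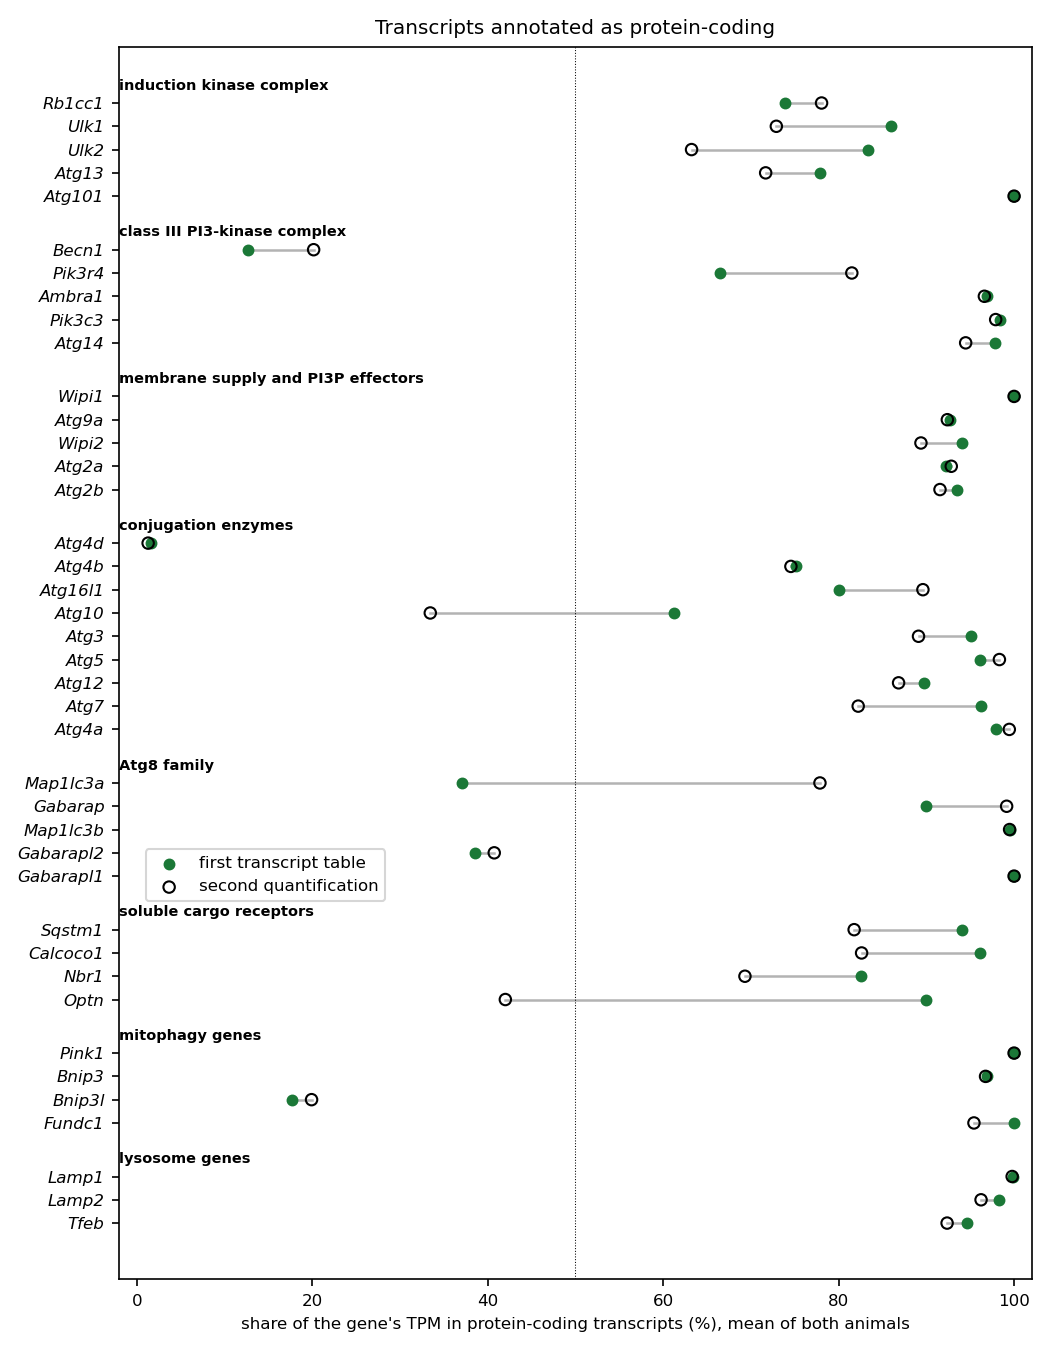
Share of each gene's TPM in transcripts annotated as protein-coding (percent, mean of both animals) for the 40 genes by role, in the first transcript table (filled) and the second quantification (open), with a dotted line at 50%. Becn1, Atg4d, Gabarapl2 and Bnip3l lie left of the line in both, Map1lc3a in the first table alone, and Optn and Atg10 in the second alone.

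The highest transcript of a gene held a median of 66.6% of its TPM, against 68.8% over the 11251 genes, and it was the same in both quantifications for 31 of the 40 genes. It differed for Rb1cc1, Atg14, Atg9a, Atg4d, Atg10, Map1lc3a, Map1lc3b, Gabarap and Fundc1. Rb1cc1, with 16 annotated transcripts, had the most divided TPM, and its highest transcript held 19.1% in animal 2 and 18.7% in animal 1. Pik3r4 followed with 30.3% in animal 2 and 46.3% in animal 1, then Ambra1 with 33.9% in animal 2 and 46.0% in animal 1, and Bnip3l with the share given above. Tfeb-202 held 38.3% of Tfeb TPM in animal 2 and 46.9% in animal 1. In the second quantification Pik3r4-201 held 65.4% and Tfeb-202 69.3% on average, so both are among the most divided genes in the first table alone. At the other end, Lamp1-201 held 99.96% of Lamp1 TPM in animal 2 and 99.8% in animal 1. Atg14-201 held 97.7% of Atg14 TPM in animal 2 and 97.6% in animal 1 of the first table, but 26.9% in animal 2 and 46.5% in animal 1 of the second, where Atg14-202 led on average with 50.9%.

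At the gene level the second quantification was higher than the gene table by a median log2 ratio of 0.25 over the 40 genes and 0.26 over protein-coding genes. Relative to that median, Optn (0.75) and Map1lc3b (0.75) were the farthest above, and Bnip3 (-0.44) the farthest below, with Becn1 (0.43) and Fundc1 (0.35) next. Optn had 66.0 TPM in animal 2 and 60.8 TPM in animal 1 of the second quantification, of which the non-coding transcript Optn-204, 697 bases long, held 27.2 TPM in animal 2 and 23.4 TPM in animal 1, against 1.99 TPM in animal 2 and 2.34 TPM in animal 1 of the first table. Map1lc3b-203, 775 bases long, had 119 TPM in animal 2 and 118.5 TPM in animal 1 of the second quantification and 48.3 TPM in animal 2 and 44.8 TPM in animal 1 of the first table. Of the 10 genes with the highest mean TPM, 9 were among the highest 10 in both. Uncertain assignment of reads to genes within a library was small: the assignment spread that the authors give with each gene count was above 1% of the reads for 1 gene, Atg4a (2.51%). This spread does not cover how reads are divided among the transcripts of a gene.

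Of the 40 genes, 13 share exon bases with another annotated gene, and whether reads were counted by strand is not stated in the labels or file headers. The largest overlaps were of Becn1 with Cntd1 on the opposite strand (43.9% of Becn1 exon bases), of Atg9a with Gm29253 on the same strand (31.8%) and of Gabarapl1 with 1700101I11Rik on the opposite strand (28.3%). Cntd1 had 12 reads in animal 2 and 5 in animal 1. Gm29253 had 28 in animal 2 and 38 in animal 1, and 1700101I11Rik had 23 in animal 2 and 26 in animal 1, few beside the reads of their partners. Kri1, which overlaps 19.3% of Atg4d exon bases on the opposite strand, had 339 reads in animal 2 and 333 in animal 1, and Atg4d itself had 1955 in animal 2 and 1691 in animal 1. The partner with the most reads was Zcchc14, which overlaps 0.772% of Map1lc3b exon bases on the opposite strand. Zcchc14 had 2771 reads in animal 2 and 2477 in animal 1, and Map1lc3b had 5413 in animal 2 and 5260 in animal 1.

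The wider pathway was followed in 77 further genes in 5 lists, of which 76 were tested. None passed with a minimum of 2-fold, while 1.38% of all genes tested did. With no fold minimum and TMM scaling 2 were higher in animal 2 (6.6% of all genes tested were) and 5 lower (4.75%). The median log2 ratio of the lists together was 0.00067 with this scaling. With total gene reads 21 were higher (18.6% of all genes tested were) and 0 lower (2.34%), and that median was 0.080. These shares of all genes tested are also the background for the counts of each list below. Stbd1, a glycophagy receptor with 68 reads in animal 2 and 32 in animal 1, came closest to the minimum with a ratio of 1.998 (adjusted exact p = 0.011), and passed it with DESeq2 size factors (2.001) and with total gene reads (2.11). It had 1.08 TPM in animal 2 and 0.46 TPM in animal 1. Psap was higher by a ratio of 1.04 (adjusted exact p = 1.3e-06). The 5 lower genes were Mlst8 (0.795), Prkab1 (0.876), Stx17 (0.886), Ctsl (0.933) and Tsc2 (0.940). Stbd1, Prkab1, Stx17 and Ctsl were named after their values were seen.

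Among the nutrient and energy kinases that set ULK1 activity, 0 of 13 were higher and 3 lower in animal 2 with TMM scaling, against 3 higher and 0 lower with total gene reads. Stk11, the kinase LKB1 that activates AMPK, was the highest with 61.7 TPM in animal 2 and 50.3 TPM in animal 1. Next came Tsc2, an inhibitor of mTORC1, with 45.9 TPM in animal 2 against 42.7 TPM in animal 1, and the AMPK subunit Prkag1 with 45.6 TPM in animal 2 and 39.2 TPM in animal 1, which overlaps it and stood above it in the second quantification (60.6 TPM in animal 2, 63.8 TPM in animal 1, against 43.5 TPM in animal 2 and 45.9 TPM in animal 1 for Tsc2). Mlst8, an mTOR partner, was the lowest with 3.76 TPM in animal 2 and 3.66 TPM in animal 1. Of the AMPK catalytic subunits, Prkaa2 exceeded Prkaa1 by 6.06 times in animal 2 and 5.92 times in animal 1. Of 12 other phagophore genes none passed in either direction with TMM scaling and 1 was higher in animal 2 with total gene reads. In the gene table Vmp1, an ER scramblase, led with 25.6 TPM in animal 2 and 26.4 TPM in animal 1 ahead of Tmem41b (22.5 TPM in animal 2, 16.6 TPM in animal 1) and Wdr45 (18.2 TPM in animal 2, 16.2 TPM in animal 1). Wdr45, a PI3P-binding propeller protein, led instead in the second quantification (32.5 TPM in animal 2, 30.2 TPM in animal 1), ahead of Vmp1 (19.9 TPM in animal 2, 21.1 TPM in animal 1). Bcl2, an inhibitor of Beclin 1, was the lowest with 2.18 TPM in animal 2 and 1.70 TPM in animal 1.

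Among 20 other genes of selective autophagy, 1 was higher (Stbd1) and 0 lower in animal 2 with TMM scaling, against 8 higher and 0 lower with total gene reads. Nipsnap2, which encodes a mitochondrial protein displayed for mitophagy, had 345 TPM in animal 2 and 298 TPM in animal 1, more than Pink1, while its relative Nipsnap1 had 0.33 TPM in animal 2 and 0.37 TPM in animal 1. Phb2, an inner-membrane mitophagy receptor, had 115 TPM in animal 2 and 94.4 TPM in animal 1. Retreg1, the ER-phagy receptor FAM134B, had 109 TPM in animal 2 and 92.0 TPM in animal 1. Calcoco2 had 0 reads in both libraries, which allows up to 0.0718 CPM in animal 2 and 0.0717 CPM in animal 1, for counting error only.

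Of 12 genes of autophagosome fusion with lysosomes, 0 were higher and 1 lower (Stx17) in animal 2 with TMM scaling, against 1 higher and 0 lower with total gene reads. Rab7, the late endosome GTPase, had 119 TPM in animal 2 and 101 TPM in animal 1. The SNARE gene Vamp8 had 30.5 TPM in animal 2 against 24.7 TPM in animal 1. The SNARE gene Ykt6 had 23.5 TPM in animal 2 against 20.2 TPM in animal 1. The tethering adaptor Plekhm1 was the lowest with 4.68 TPM in animal 2 and 3.99 TPM in animal 1. Of 20 lysosomal genes 1 was higher (Psap) and 1 lower (Ctsl) in animal 2 with TMM scaling, against 8 higher and 0 lower with total gene reads. Psap, the precursor of the saposins, had 504 TPM in animal 2 and 414 TPM in animal 1. Ctsd (cathepsin D) had 388 TPM in animal 2 against 329 TPM in animal 1 and Ctsb (cathepsin B) 178 TPM in animal 2 against 149 TPM in animal 1. Gusb (beta-glucuronidase) was the lowest with 5.62 TPM in animal 2 and 4.75 TPM in animal 1, though in the second quantification Tfe3 was.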

How the data were processed

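Total RNA of heart from 2 animals of 1 group was sequenced, 1 library each. The gene table and the first transcript table have RSEM's columns, per the file headers. Their expected counts are estimated reads that the authors deposited without normalisation, made from transcriptome alignments according to the readme. The TPM of each table was computed by the authors over all its entries. The second transcript table has kallisto's columns, estimated counts and TPM, per the file headers; according to the readme it was made from a read file, and it is called the second quantification. The posterior SD of the counts, a signal of assignment uncertainty within 1 library deposited by the authors, is called the assignment spread. The readme and labels name mm10 and annotation release M21; the aligner, versions and filters are stated in neither the labels nor the headers. For transcripts over 1000 bases the effective length is 99 bases below the length in the first table, and 327 (animal 2) and 326 (animal 1) below it in the second.

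Expected counts were rounded, and 16133 genes with at least 20 reads over both libraries were compared between libraries by an exact two-sided binomial test with TMM-scaled library sizes (edgeR 4.0.16, R 4.3.3; scipy 1.17.1 for the test), with Benjamini-Hochberg adjustment at 0.05, with and without a minimum of 2-fold. With 1 library per animal the test sees counting error alone, and p-values do not cover variation between animals, which may in part be technical. A prior count of 0.5 went into log2 ratios. The biological coefficient of variation over all genes was 0.083. The procedure was tested on simulated data. Of the 81881 entries, 26248 have a number, not an identifier, as their name; they held 4.76e-06% of reads in animal 2 and 9.5e-06% in animal 1, and spike-ins 0.619% in animal 2 and 0.596% in animal 1, and both stayed out of tests. With no molecular identifiers, intervals and limits are for counting error only, and the limit for a count of 0 is 3 reads.

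The members and lists were chosen with earlier results of these data known. Genes named are, in each role group, the highest 3 and the lowest by mean TPM, the members that passed with no fold minimum, the 5 with the largest difference between quantifications, the 5 with the lowest share of their highest transcript and those whose highest transcript differs; in each pathway list, the highest 3 and the lowest. Others named (such as Atg13, Pik3c3, Atg2a, Atg3, Atg5, Atg7, Atg12, Mitf, Tfe3, Nipsnap1 and Prkaa2) complete a role group or a pair. Of the pathway lists, 1 gene is not reported here. Promoters came from RefSeq (GRCm38.p6) and coding ends from the GENCODE M21 transcripts, both reference sequences and not those of the hybrid animals. A comparison of Atg8 proteins was planned and not made. Alternatives tried were DESeq2 1.42.0 size factors, total gene reads, other minimum reads, the second quantification, edgeR's exact test and TPM rescaled over nuclear protein-coding genes.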

Additional observations from a re-analysis of the deposited data

How the results depend on the processing

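No paired analysis was possible because there is 1 group with 1 library per animal. The summed TPM of a role group depends on the quantification and on what TPM is summed over. In the second quantification the sums were 138 TPM for the induction kinase complex, 85.6 for the class III PI3-kinase complex, 106 for membrane supply, 131 for conjugation enzymes, 858 for the Atg8 family, 339.8 for soluble cargo receptors and 263 for lysosome genes, and that of mitophagy genes, 565 TPM, moved by less than the SD. Rescaled over nuclear protein-coding genes, they were 254, 146, 222, 241, 1457, 564, 1286 (mitophagy genes) and 545 TPM in the same order, with mitophagy genes before lysosome genes. The sums from animal 2 or animal 1 alone are those given for each group.

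The count of genes passing with no fold minimum was 4 with TMM, 12 with total gene reads, none of them shared, and 0 with edgeR's exact test. With DESeq2 size factors, other minimum reads and the second quantification it was between 3 and 5. The count at 2-fold or more was 0 under the 6 alternatives tried. The median log2 ratio of the 40 genes between animals was 0.19 in deposited TPM, which carries the shift of scale shared by all genes. The median share of the highest transcript of the first table was 61.0% in the second. In the second quantification Bnip3l averaged 126 TPM, Map1lc3a 386 TPM and Gabarap 149.7 TPM, each farther from the gene table than the SD between animals. The cause of these shifts was not tested. With 2 libraries of 1 group, leaving out a replicate leaves no comparison of animals. The recount of pathway and marker lists with total gene reads, and the ratios between genes in coding transcripts alone, were chosen after seeing the data.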
